A study of Mus musculus with 12 samples.

Results

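The genes described here are 38 mouse genes of protein folding and degradation in the endoplasmic reticulum, chosen by symbol and looked up in the deposited count table through their Ensembl identifiers. Members made up 37 of the 15113 genes listed there, all 37 passed the filter on low counts that left 12730 genes for testing, and Derl3 was not analysed here. By role the 38 comprise 5 sensors of unfolded protein and their activating proteases, 12 chaperones and co-chaperones, 7 disulfide isomerases, 11 degradation factors and 3 subunits of the translocation machinery.

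The members were followed in C2C12, a line of mouse myoblasts that fuse into myotubes when serum is lowered. All 12 libraries came from differentiated myotubes that were kept for 16 h either with 20 μM BAM15 in DMSO (6 libraries, BAM15 1 to 6) or with vehicle (6 libraries, vehicle 1 to 6). BAM15 is a mitochondrial protonophore, a compound that carries protons across the inner mitochondrial membrane and so uncouples respiration from ATP synthesis, and the comparison asks how these genes' mRNA levels differ after exposure to it. Reads were taken by QuantSeq, a 3′ method that primes from the poly(A) tail, so long transcripts give no more reads than short ones of the same abundance. The labels name 1 cell line and do not say that libraries of a group came from separate cultures, and the p-values therefore measure the spread between these libraries, which may be technical.

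Proteins that enter the secretory pathway are threaded into the endoplasmic reticulum, folded there by chaperones and disulfide isomerases, and, when they fail to fold, returned to the cytosol for destruction by the proteasome. The load of unfolded protein is read by membrane sensors, IRE1 (encoded by Ern1), ATF6 and PERK. IRE1 splices the mRNA of the transcription factor XBP1, ATF6 is cut by the site-1 and site-2 proteases (Mbtps1 and Mbtps2), and both factors then raise chaperone and degradation genes, while PERK slows translation and favors synthesis of ATF4. In muscle the same organelle forms the sarcoplasmic reticulum, which stores calcium. Counts of reads near the 3′ end do not show how Xbp1 mRNA was spliced.

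Between 13983725 and 18751780 reads were counted on genes in the BAM15 libraries and between 15299135 and 18866728 in the vehicle libraries. Contractile and differentiation genes marked all 12 libraries as myotubes, since the 16 listed markers summed to 30210 to 36620 CPM (counts scaled to a common library total) after BAM15 and to 31580 to 37010 with vehicle. At an adjusted p-value below 0.01 in edgeR 2 of them rose and 3 fell. This and the marker counts that follow are to be read beside the 22.0% of all tested genes that rose and the 20.3% that fell. Most genes of cycling or undifferentiated myoblasts were lower after BAM15, with 9 of 12 lower and 1 higher at this threshold, and they summed to 207 to 304 CPM against 508 to 565. Fibroblast genes summed to 1473 to 2348 against 2144 to 2532 CPM (3 of the 5 tested were lower), and the 3 adipocyte or macrophage genes in the table to 3.28 to 4.45 against 0.588 to 1.27. The part of these shifts in the results below was not tested, and in such bulk RNA fewer cells of a type cannot be told apart from less RNA per cell.

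Within the BAM15 group the libraries numbered 4 to 6 stood apart from those numbered 1 to 3, and no label names a batch or culture that separates them. This division was used because an earlier account of these same data had found it. The p-values for differences between the number sets thus test a split taken from the data and do not measure how unlikely it is. In edgeR 18.6% of all tested genes were higher and 20.2% lower in BAM15 4 to 6 than in BAM15 1 to 3 at an adjusted p-value below 0.05. For the members these figures were 14 higher and 7 lower of 37. Between the same numbers of the vehicle group 0 members differed (2 did at an unadjusted p-value below 0.05). The share of all genes there is not given, so these counts do not tell whether vehicle libraries also separate by number. The difference of the BAM15 effect between the number sets, tested directly in edgeR, passed an adjusted p-value of 0.05 for 1 member, Manf. Values within each set of numbers are therefore given beside the members whose call or size they change. The cause of the separation was not tested.

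The members as a whole moved upward after BAM15. Together they took 1.14% to 1.17% of all counts in the BAM15 libraries against 0.651% to 0.681% in the vehicle libraries. Hspa5, which encodes the major Hsp70 chaperone of the endoplasmic reticulum (BiP), made the largest share of this, at 0.459% to 0.519% against 0.126% to 0.134% of all counts. Without Hspa5 the members still took 0.642% to 0.697% against 0.521% to 0.555%, and the groups did not overlap. By role, the summed chaperones reached 7636 to 8437 CPM against 3727 to 4068, degradation factors 1097 to 1305 against 749 to 806, translocation subunits 583 to 698 against 486 to 543 and sensors 312 to 485 against 279 to 296. Disulfide isomerases overlapped between the groups, at 1164 to 1394 against 1140 to 1223 CPM.

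**Figure D1:**
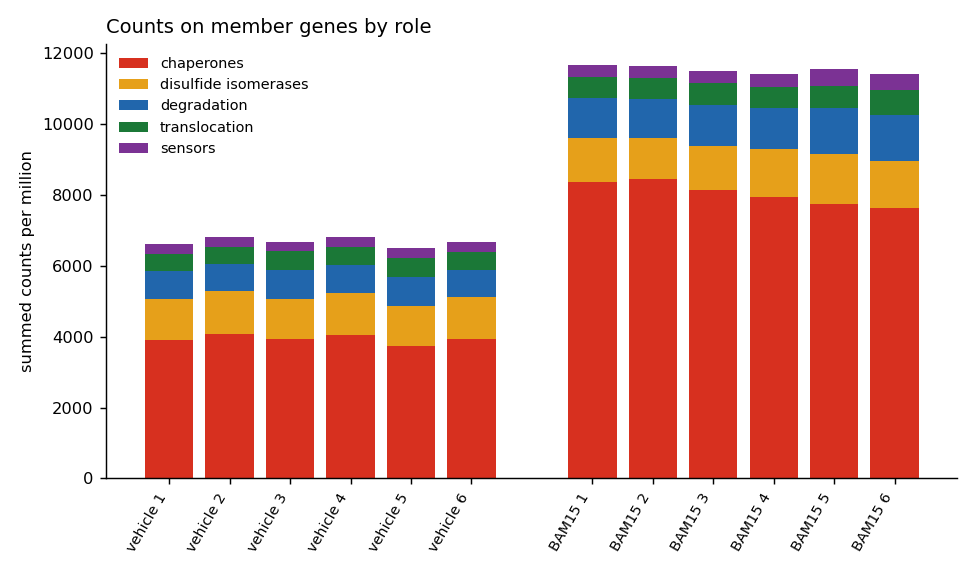
Summed CPM on the measured member genes in each of the 12 libraries, stacked by role, with the vertical axis starting at 0. Chaperones make up most of every bar and account for most of the greater height of the BAM15 bars, where they sum to 7636 to 8437 against 3727 to 4068 with vehicle. Much of that is Hspa5, a single chaperone with 0.459% to 0.519% of all counts after BAM15 against 0.126% to 0.134% with vehicle.

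Of the 37 tested members 18 rose and 0 fell at an adjusted p-value below 0.01 (quasi-likelihood test of edgeR, adjusted over all tested genes by the Benjamini-Hochberg method), where 22.0% of all tested genes rose and 20.3% fell. Only Mbtps1 was lower at an unadjusted p-value below 0.05 in edgeR, DESeq2 and limma-voom, and the members higher at the adjusted threshold numbered 19 in DESeq2 and 18 in limma-voom. All 6 BAM15 libraries lay above all 6 vehicle libraries for 16 members and below them for 0, where such a separation held for 17.1% and 17.0% of all tested genes. Adding the study's other thresholds, a mean normalized count above 50 and a change above 2-fold, left 6 members higher (Hspa5, Ern1, Herpud1, Dnajb9, Sdf2l1 and Hyou1) and 0 lower, beside 3.70% and 3.58% of all tested genes. Over the members the log2 fold changes had a median of 0.44, over all genes one of 0.02, and 34 of 37 members had a positive value. A normalized count is the count scaled to a common library size by the TMM method, and log2 fold changes are BAM15 over vehicle throughout.

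**Figure D2:**
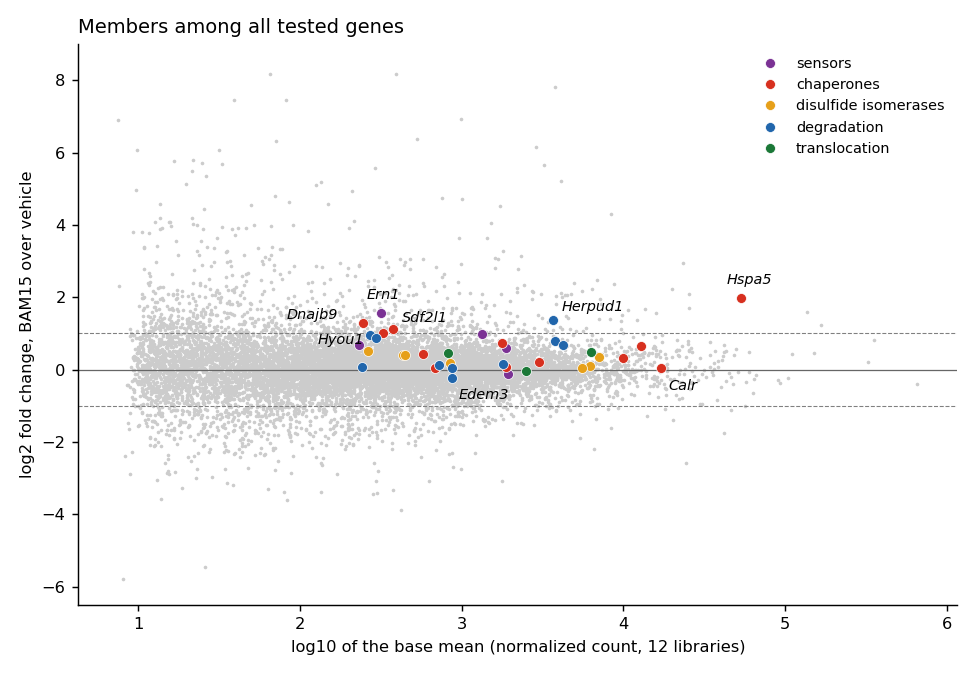
Log2 fold change, BAM15 over vehicle, against the log10 of the mean normalized count over the 12 libraries, with 1 gray point per tested gene and the members colored by role; dashed lines mark a 2-fold change. Most members lie above 0, from a log2 fold change of -0.22 for Edem3 to 1.98 for Hspa5, and Hspa5 is both the member with the highest count and the one that changed most.

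The letters of the known stress elements were looked for in the members' promoters, because ATF6 and XBP1 act through them and the members that carry them can then be read against their changes. The endoplasmic reticulum stress element (ERSE) was taken as CCAAT and CCACG separated by 9 bases, ERSE-II as ATTGG and CCACG separated by 1 base, the unfolded protein response element (UPRE) as TGACGTGG, and the element bound by C/EBP and ATF factors such as ATF4 (CARE) as TTGCATCA, each on both strands. ATTGG is CCAAT read from the other strand, both ERSE forms share CCACG, and the end of the UPRE is CCACG read from the other strand. Promoters were RefSeq's for GRCm38.p6, from 250 bases before to 50 bases after each start, and 31 of the 38 members matched 35 of them. ERSE stood in 9 of these 35 (25.7%, from 9 genes) and in 39 of all 32851 promoters (0.119%), and ERSE-II in 2 and 12 (0.0365% of all). UPRE was found in 1 member promoter, that of Txndc5, and in 222 of all (0.676%), and CARE in 1, that of Herpud1, and in 294 of all (0.895%). The ERSE and ERSE-II elements of the measured genes that lie before the RefSeq start are shown because the same blocks stand there in members that changed very differently. Each is written 5′ to 3′ on the gene's strand with the 2 matched blocks in capitals, and the coordinates are those of the run printed. The element of Hspa5 lies before its RefSeq start (position 34772090) but within the span of the GENCODE gene, which begins further upstream. Only a short run is printed for it, whereas the others lie outside the GENCODE gene.
Hspa5, chr2:34772020-34772048, plus strand: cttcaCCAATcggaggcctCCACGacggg
Syvn1, chr19:6046514-6046568, plus strand: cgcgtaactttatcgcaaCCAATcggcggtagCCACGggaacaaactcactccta
Dnajc3, chr14:118937809-118937863, plus strand: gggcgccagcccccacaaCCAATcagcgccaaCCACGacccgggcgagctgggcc
Pdia6, chr12:17266473-17266527, plus strand: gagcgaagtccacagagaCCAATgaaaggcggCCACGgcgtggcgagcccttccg
Canx, chr11:50325782-50325836, minus strand: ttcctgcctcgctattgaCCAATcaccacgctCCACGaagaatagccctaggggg
Hsp90b1 (upstream copy), chr10:86705620-86705674, minus strand: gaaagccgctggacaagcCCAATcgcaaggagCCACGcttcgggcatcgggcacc
Hsp90b1 (downstream copy), chr10:86705515-86705569, minus strand: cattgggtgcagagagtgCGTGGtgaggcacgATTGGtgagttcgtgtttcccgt
Calr, chr8:84847057-84847111, minus strand: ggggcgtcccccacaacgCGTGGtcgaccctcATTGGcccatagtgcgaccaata
Creld2, chr15:88819502-88819556, plus strand: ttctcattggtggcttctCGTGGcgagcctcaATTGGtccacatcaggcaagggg
Herpud1 (ERSE-II), chr8:94386359-94386405, plus strand: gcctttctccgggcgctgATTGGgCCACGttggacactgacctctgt

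Members with an ERSE did not form a uniform group. Of the 8 that were tested 5 rose, where 22.0% of all tested genes rose, a share that also stands beside the next count. Their log2 fold changes ran from 0.03 for Calr, which encodes the lectin chaperone calreticulin, to 1.98 for Hspa5, with a median of 0.39. The 20 tested members whose promoters held neither ERSE nor ERSE-II included 8 that rose, with a median log2 fold change of 0.41, among them Ern1 (1.56), Dnajb9 (1.30) and Sdf2l1 (1.11). A match is a run of letters and was not tested as a binding site. Where no match was found, these letters were absent from the window searched.

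Among the sensors 4 of 5 rose and 1 did not pass the test, where 22.0% of all tested genes rose. Positions are those of GENCODE M21 on GRCm38. Ern1 (chr11:106394650-106487852, minus strand), the kinase and endonuclease IRE1, ran from 444 to 573 normalized counts after BAM15 (median 451) and from 139 to 175 with vehicle (median 161). Every BAM15 library lay above every vehicle library, and the log2 fold change was 1.56 ± 0.08 (SE, n = 6 per group, adjusted p = 7.6e-10), with similar values within libraries 1 to 3 and within libraries 4 to 6 (adjusted p = 4.16e-10 and 3.65e-07). Atf6 (chr1:170704674-170867771, minus strand), the membrane-bound transcription factor, ran from 2157 to 2484 (median 2231) against 1344 to 1660 (median 1492). Here too the groups were apart, by a log2 fold change of 0.61 ± 0.06 (SE, adjusted p = 1.31e-06), and the values within the number sets were 0.58 and 0.63.

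Xbp1 (chr11:5520659-5525893, plus strand), the transcription factor whose mRNA IRE1 splices, ran from 1003 to 3057 normalized counts after BAM15 (median 1512) and from 824 to 983 with vehicle (median 913). The groups did not overlap, yet the BAM15 libraries spread over a 3.05-fold range where the vehicle libraries spread over 1.19-fold. Its log2 fold change was 0.98 ± 0.24 (SE, adjusted p = 0.00439), just under 2-fold, and was 0.42 within libraries 1 to 3 (adjusted p = 0.00057) and 1.34 within libraries 4 to 6 (adjusted p = 0.00113). The 3 BAM15 libraries numbered 4 to 6 held the highest Xbp1 values, with a mean of 2384 against 1167 for BAM15 1 to 3. The call was lost without BAM15 6, vehicle 1, vehicle 3 or vehicle 5, with an adjusted p-value of 0.0105 to 0.0126. Leaving out BAM15 1, 2 or 3 put the change above 2-fold, at a log2 value of 1.05 to 1.10.

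Of the proteases that cut ATF6, Mbtps2 rose and Mbtps1 did not pass the test. Mbtps2 (chrX:157535371-157598715, minus strand), the site-2 protease, ran from 213 to 366 normalized counts (median 269) against 152 to 202 (median 177). All BAM15 libraries were above all vehicle libraries, with a log2 fold change of 0.68 ± 0.14 (SE, adjusted p = 0.000844), 0.53 within libraries 1 to 3 and 0.78 within libraries 4 to 6. Windows of 50 bases from the last 400 bases of each member's transcript were looked for anywhere in the transcripts of other genes. Of those of Mbtps2, 51.0% also occur in Yy2, which overlaps it there on the same strand, so counts on Mbtps2 are uncertain. Mbtps1 (chr8:119508156-119558735, minus strand), the site-1 protease, gave 1770 to 1974 (median 1848) against 1910 to 2104 (median 2004). The groups overlapped although each BAM15 library lay below the vehicle mean, and the log2 fold change of -0.11 ± 0.05 (SE) had an adjusted p of 0.0557.

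**Figure D3:**
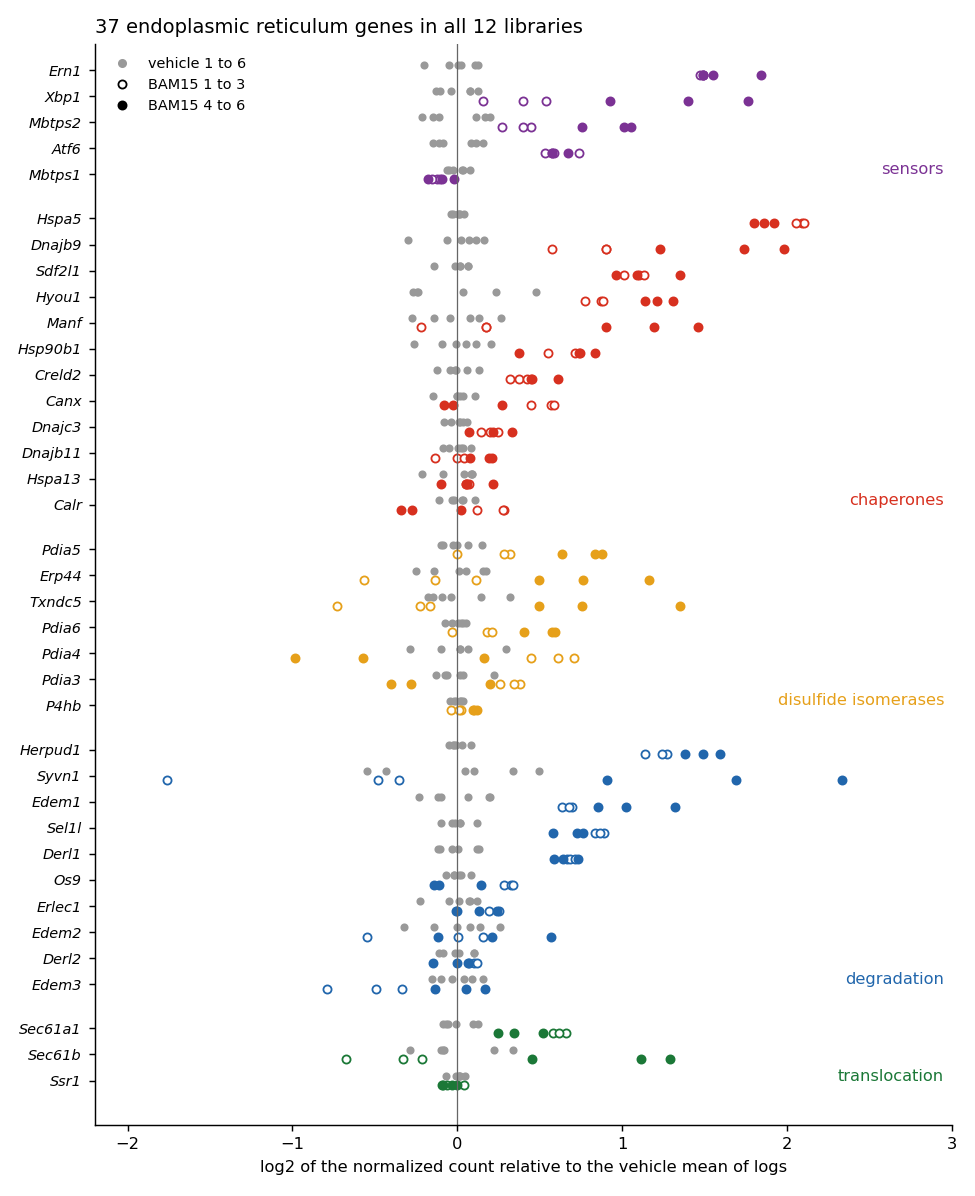
Normalized counts of the 37 measured members in all 12 libraries, on a log2 scale relative to the vehicle mean of logs, grouped by role and ordered within a role by fold change; gray points are vehicle libraries, open points BAM15 1 to 3 and filled points BAM15 4 to 6. For Ern1, Hspa5 and Herpud1 every colored point lies far right of the gray ones, while for Syvn1, Sec61b and Txndc5 the open points fall left of 0 and the filled points right of it.

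Of the 12 chaperones 7 rose, 0 fell and 5 did not pass the test, where 22.0% of all tested genes rose and 20.3% fell. All 12 had a positive log2 fold change (median 0.55), as did 6644 of the 12730 tested genes. For the 7 that rose the groups did not overlap, and BAM15 lay above vehicle in this way for 17.1% of all tested genes. Hspa5 (chr2:34771970-34777547, plus strand) ran from 75485 to 93235 normalized counts after BAM15 (median 85832) and from 21100 to 22268 with vehicle (median 21806). The groups were far apart, and the log2 fold change of 1.98 ± 0.06 (SE, adjusted p = 2.38e-12) corresponded to 3.93-fold. It was 2.08 within libraries 1 to 3 and 1.84 within libraries 4 to 6, and BAM15 4 to 6 were lower than BAM15 1 to 3 (means 78770 and 91720, adjusted p = 0.00591).

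Several partners of BiP rose with it. Dnajb9 (chr12:44205559-44210326, minus strand), the J-domain co-chaperone ERdj4, ran from 210 to 555 normalized counts (median 297) against 114 to 157 (median 145). BAM15 4 to 6 held its highest values, and the log2 fold change was 1.30 ± 0.21 (SE, adjusted p = 0.000153), with 0.89 within libraries 1 to 3, under 2-fold, and 1.57 within libraries 4 to 6. Sdf2l1 (chr16:17130138-17132383, minus strand), which forms complexes with J-domain proteins of the endoplasmic reticulum, ran from 460 to 602 (median 506) against 215 to 248 (median 239), and its groups were widely apart. The log2 fold change of Sdf2l1 was 1.11 ± 0.07 (SE, adjusted p = 7.98e-09) and differed little between the number sets (1.06 and 1.15). Hyou1 (chr9:44379490-44392369, plus strand), the large Hsp70-like chaperone Grp170 that exchanges nucleotide on BiP, ran from 362 to 523 (median 429) against 176 to 294 (median 198). Its log2 fold change of 1.02 ± 0.14 (SE, adjusted p = 1.8e-05) sat at the 2-fold threshold and was 0.961 to 0.998 without any of BAM15 4, 5 or 6 or vehicle 1, 3 or 5, 0.92 within libraries 1 to 3 and 1.09 within libraries 4 to 6.

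**Figure D4:**
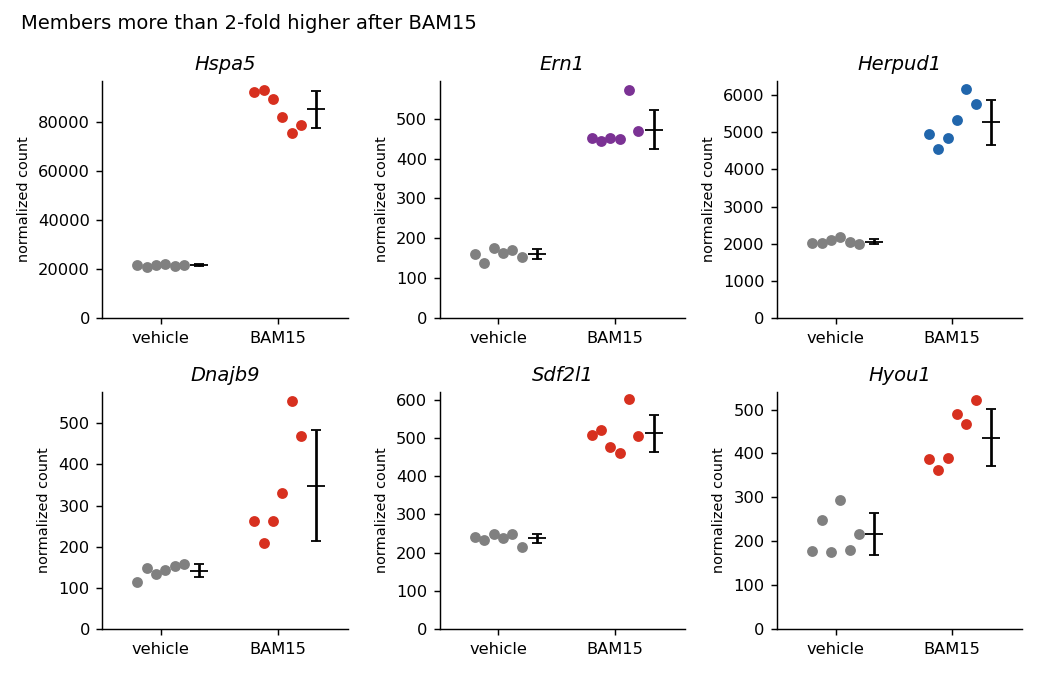
Normalized counts of the 6 members past all thresholds in each library (points, in library order 1 to 6) with the group mean and SD beside them (bars), on linear axes from 0. No BAM15 point reaches down to the vehicle points in any of the 6 genes. For Dnajb9 the BAM15 libraries spread from 210 to 555, and for Ern1 library 5 stands above the others at 573.

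The remaining chaperones that rose did so by less. Hsp90b1, the Hsp90 of the endoplasmic reticulum (Grp94), rose by 0.66 on the log2 scale (adjusted p = 1.62e-05), Creld2, a stress-induced protein of the lumen, by 0.44 (adjusted p = 3.72e-05) and Dnajc3, the inhibitor p58IPK, by 0.20 (adjusted p = 0.00396). The call of Dnajc3 was lost without BAM15 4, vehicle 4 or vehicle 5 (adjusted p 0.0108 to 0.012) and within each number set (0.0216 within libraries 1 to 3 and 0.0346 within libraries 4 to 6). Among the 5 that did not pass, Manf, a secreted factor retained by BiP, ran from 1145 to 3659 normalized counts after BAM15 against 1099 to 1598 with vehicle, and its log2 fold change of 0.73 ± 0.26 (SE, adjusted p = 0.0315) was 0.13 within libraries 1 to 3 and 1.10 within libraries 4 to 6. Without BAM15 2 the adjusted p of Manf was 0.00775, and 14 of the last 400 bases of its transcript overlap Rbm15b on the same strand. The membrane lectin chaperone Canx gave a log2 fold change of 0.32 (adjusted p = 0.0233), which was 0.48 (adjusted p = 7.13e-07) within libraries 1 to 3 and 0.10 (adjusted p = 0.425) within libraries 4 to 6. Canx passed the threshold with the number set as a term of the fit (adjusted p = 0.00332), and it also passed the threshold without BAM15 5 or BAM15 6 (adjusted p 0.00241 and 0.00578).

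Calr, the soluble partner of Canx in the lectin cycle, ran from 13331 to 20566 normalized counts after BAM15 (median 17747) and from 15625 to 18221 with vehicle (median 16936). The groups overlapped and the log2 fold change was 0.03 ± 0.10 (SE, adjusted p = 0.805), with 0.19 within libraries 1 to 3 and -0.17 within libraries 4 to 6. The J-domain co-chaperone Dnajb11 (log2 fold change 0.07, adjusted p = 0.392) and the Hsp70 family member Hspa13 (0.06, adjusted p = 0.515) did not pass either. Hspa5 and Calr, which both have an ERSE match before their RefSeq start, had log2 fold changes of 1.98 and 0.03. The match of Hspa5 ends 46 bases before that start and the match of Calr 143 bases before it, in the other orientation. The part of these matches in the changes was not tested.

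The disulfide isomerases, which form and rearrange disulfide bonds, had the lowest median change of the 5 roles. Of the 7 members 2 rose, 0 fell and 5 did not pass, where 22.0% of all tested genes rose and 20.3% fell. The number that rose is thus near the share of all genes. The median log2 fold change was 0.34, and the groups overlapped for all 7. Pdia5 (chr16:35397312-35490873, minus strand), an isomerase known to act on ATF6, ran from 215 to 394 normalized counts (median 301) against 201 to 239 (median 213). Its log2 fold change was 0.52 ± 0.13 (SE, adjusted p = 0.00392), with 5 of 6 BAM15 libraries above the vehicle mean, and it was 0.27 (adjusted p = 0.0515) within libraries 1 to 3 and 0.71 (adjusted p = 0.000252) within libraries 4 to 6. Pdia6 (chr12:17266545-17284770, plus strand), an isomerase known to bind IRE1, ran from 6124 to 9425 (median 7755) against 5951 to 6475 (median 6310), and BAM15 4 to 6 held the highest values. Its log2 fold change was 0.34 ± 0.09 (SE, adjusted p = 0.00612), with 0.15 and 0.49 within the number sets.

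Neither of these calls held in every fit with a library left out. The adjusted p of Pdia5 was 0.0103 to 0.0113 without BAM15 4, vehicle 2 or vehicle 3, and that of Pdia6 was 0.0106 to 0.016 without BAM15 4, 5 or 6 or any single vehicle library. The last 400 bases of Pdia6 also overlap Atp6v1c2 on the opposite strand over 50 bases, and whether strand was used for counting is not given in the sources used here.

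Of the other 5 isomerases 4 had log2 fold changes of opposite sign in the number sets, and for none of them did the difference of the effect between the sets pass an adjusted p-value of 0.05 (0.0732 to 0.299). Txndc5, a thioredoxin-domain isomerase, had a log2 fold change of -0.23 within libraries 1 to 3 and 0.77 within libraries 4 to 6, and Erp44, which retains client proteins in the early secretory pathway, one of -0.11 and 0.76. Pdia4 went the other way, at 0.51 (adjusted p = 0.000215) and -0.33 (adjusted p = 0.385), as did Pdia3, the isomerase that works with calreticulin and calnexin, at 0.23 (adjusted p = 0.00376) and -0.06 (adjusted p = 0.724). Over all libraries the adjusted p-values of these 4 were between 0.167 (Erp44) and 0.588 (Pdia4). P4hb, the archetypal protein disulfide isomerase, stayed between 5288 and 5889 normalized counts after BAM15 and between 5268 and 5558 with vehicle, with a log2 fold change of 0.05 ± 0.05 (SE, adjusted p = 0.348). Of the last 400 bases of Txndc5, 224 overlap Bmp6 on the opposite strand.

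Of the 10 degradation factors measured 4 rose, 0 fell and 6 did not pass, with a median log2 fold change of 0.41. Of all tested genes 22.0% rose and 20.3% fell. The groups were apart for all 4 that rose, where 17.1% of all tested genes were higher without overlap. Genes of the complex that moves misfolded proteins out of the endoplasmic reticulum, or that feed it, stood among these 4. Others of that kind, such as Syvn1, Os9 and Erlec1, were among the 6 that did not pass. Herpud1 (chr8:94386438-94395377, plus strand), the adaptor that organizes the ubiquitin ligase complex, ran from 4535 to 6163 normalized counts (median 5140) against 1981 to 2169 (median 2028). Its log2 fold change was 1.36 ± 0.07 (SE, adjusted p = 5.63e-10), it rose within both number sets (adjusted p = 1.43e-12 and 1.45e-08), and its promoter is the member promoter that holds both an ERSE-II and a CARE. Edem1, a lectin that directs glycoproteins to degradation, rose by 0.88 on the log2 scale (adjusted p = 2.43e-05), and Sel1l, the scaffold of the ligase, by 0.78 (adjusted p = 3.68e-08). Derl1 (chr15:57869502-57892448, minus strand), a membrane protein of the retrotranslocation channel and the degradation member with the highest mean count, ran from 4890 to 5428 (median 5210) against 3009 to 3571 (median 3234). The BAM15 libraries of Derl1 lay within a 1.11-fold range, and its log2 fold change was 0.67 ± 0.06 (SE, adjusted p = 1.05e-07).

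Syvn1, the ubiquitin ligase Hrd1 that Sel1l holds, was the least uniform member. It ran from 52.9 to 898 normalized counts after BAM15 (median 237) and from 122 to 252 with vehicle (median 188), so that the BAM15 libraries reached both below and above all vehicle libraries, a 17.0-fold range. BAM15 1 to 3 averaged 107 and BAM15 4 to 6 averaged 603, the log2 fold change was -0.46 within libraries 1 to 3 and 1.44 within libraries 4 to 6, and over all libraries it was 0.94 ± 0.56 (SE, adjusted p = 0.178). Of the last 400 bases of Syvn1, 91 overlap Mrpl49 on the opposite strand.

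Edem2, Edem3 and Derl2, paralogs of degradation members that rose, did not pass the test, whereas Herpud2, a paralog of Herpud1 that is no member, rose by 0.69 on the log2 scale (adjusted p = 4.21e-05). The log2 value was 0.08 for Edem2 (adjusted p = 0.699) and -0.22 for Edem3 (adjusted p = 0.175), against 0.88 for Edem1, and 0.03 for Derl2 (adjusted p = 0.656), against 0.67 for Derl1. Within libraries 1 to 3 Edem3 fell by 0.50 on the log2 scale (adjusted p = 0.00019), while within libraries 4 to 6 it was at -0.01 (adjusted p = 0.944). The lectins Os9 and Erlec1, which bring glycoproteins to the ligase, had log2 fold changes of 0.15 (adjusted p = 0.143) and 0.13 (adjusted p = 0.129). Within libraries 1 to 3 that of Os9 was 0.27 (adjusted p = 0.000453) and within libraries 4 to 6 it was -0.00466 (adjusted p = 0.97).

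The 3 translocation members are likewise to be read beside the 22.0% of all tested genes that rose. Only Sec61a1 (chr6:88503579-88518905, minus strand), which encodes the pore of the channel, rose among them. It ran from 6162 to 8187 normalized counts (median 7595) against 4882 to 5664 (median 5076), without overlap, and its log2 fold change was 0.50 ± 0.07 (SE, adjusted p = 4e-05), with 0.61 within libraries 1 to 3 and 0.37 within libraries 4 to 6. Gm44170 lies opposite 250 of its last 400 bases. Sec61b, a small subunit of the same channel, ran from 431 to 1687 against 564 to 868, with a log2 fold change of -0.24 within libraries 1 to 3 and 0.82 within libraries 4 to 6 (0.45 ± 0.32 over all, SE, adjusted p = 0.258). Of the 50-base windows at its transcript's end, 40.5% also occur in Gm10320, Gm33666 or Gm5870, and its counts are uncertain for that reason. For Ssr1, a subunit of the translocon-associated complex, the log2 fold change was -0.04 (adjusted p = 0.46).

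Over all members the direction was the same within libraries 1 to 3 and within libraries 4 to 6 for 27 of 37. The members that rose at an adjusted p-value below 0.01 numbered 19 within each set, where 22.2% of the genes tested within libraries 1 to 3 and 16.5% of those tested within libraries 4 to 6 rose. Only Edem3, 1 member, fell within libraries 1 to 3, where 22.2% of the tested genes fell, and no member passed as lower within libraries 4 to 6, where 16.7% did. A test of the difference between the number sets, an interaction term in edgeR over all 12 libraries, passed an adjusted p-value of 0.05 for 1 member, Manf (0.98 on the log2 scale, adjusted p = 0.0488), where 2.66% of all tested genes passed. Within the BAM15 group alone, the 14 members higher in libraries 4 to 6 were Xbp1, Mbtps2, Dnajb9, Dnajb11, Manf, Pdia5, Pdia6, Txndc5, Erp44, Herpud1, Syvn1, Edem1, Edem3 and Sec61b. The 7 lower there were Hspa5, Calr, Canx, Pdia3, Pdia4, Os9 and Sec61a1. Each role thus held members of both kinds, except the sensors, where 2 were higher and none lower. Atf6, Ern1, Sdf2l1, Creld2, Hsp90b1, Hyou1, Derl1 and Sel1l rose in both sets, and for these the difference between BAM15 1 to 3 and BAM15 4 to 6 did not pass an adjusted p-value of 0.05.

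**Figure D5:**
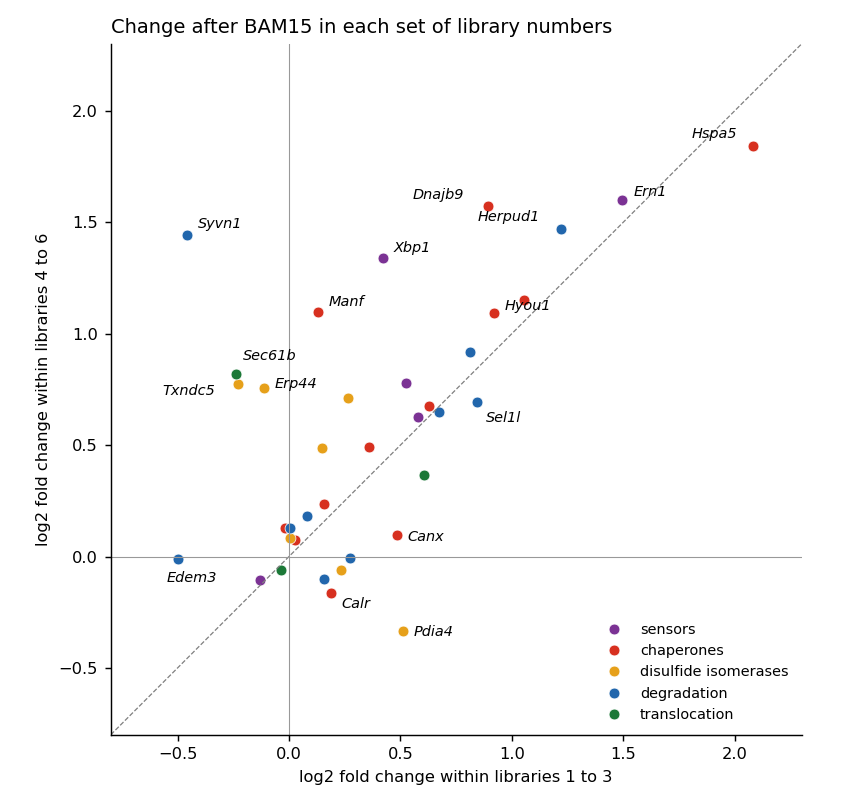
Log2 fold change, BAM15 over vehicle, of each of the 37 members fitted within libraries 4 to 6 (vertical) against that fitted within libraries 1 to 3 (horizontal), colored by role; the dashed line marks equal values. Hspa5, Ern1 and Herpud1 lie near the line at the upper right, while Syvn1 (-0.46 and 1.44), Sec61b (-0.24 and 0.82) and Txndc5 (-0.23 and 0.77) lie above it at the left and Pdia4 (0.51 and -0.33) below it.

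The spread among the BAM15 libraries exceeded that among the vehicle libraries for 31 of the 37 members (83.8%), as it did for 72.5% of all tested genes. Over all tested genes with counts in both groups the median coefficient of variation was 14.8% after BAM15 and 9.81% with vehicle. That of the members was 14.5% after BAM15 and 7.42% with vehicle. The coefficient after BAM15 reached 92.1% for Syvn1, 55.6% for Sec61b and 53.9% for Txndc5, and was 3.72% for Derl1, 5.37% for Atf6 and 8.79% for Hspa5. A change of the size fitted for Syvn1 or Sec61b could thus not be told from the spread between these libraries, while changes of 0.61 for Atf6 and 0.67 for Derl1 could.

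Another 101 genes of the same organelle, listed by function, give the setting of the members. Of the 99 tested 33 rose, 10 fell and 56 did not pass, where 22.0% of all tested genes rose and 20.3% fell. The 99 had a median log2 fold change of 0.15. Past all thresholds 11 were higher and 0 lower, beside 3.70% and 3.58% of all tested genes. The 7 genes listed as the PERK arm include Eif2ak3, which encodes PERK, at a log2 fold change of 0.51 (adjusted p = 0.00593, groups overlapping). Whether PERK was active, or lay behind the changes of the other genes in this list, was not tested. All 7 rose, 6 of them past all thresholds, with a median log2 fold change of 3.63. Of these Trib3, a pseudokinase target of ATF4 and CHOP, ran from 5410 to 6851 normalized counts after BAM15 against 107 to 156 with vehicle (log2 fold change 5.65, adjusted p = 2.69e-14), and Ddit3, which encodes CHOP, from 12219 to 19011 against 687 to 883 (4.31, adjusted p = 9.44e-13). Ppp1r15a (GADD34, which restores translation) had a log2 fold change of 3.64 and Chac1, a glutathione-degrading enzyme, one of 3.63. Ero1a, the oxidase that recharges disulfide isomerases, belongs to the list of folding and oxidation. It had a log2 fold change of 2.64, with 1294 to 1379 against 189 to 238 normalized counts. Each of these 5 genes thus had a larger fitted change than every member, of which the largest was Hspa5 at 1.98. So did Atf4 of the PERK arm, at 2.10 (edgeR adjusted p = 2.97e-10). In the other lists 7 of 32 genes of folding and oxidation rose and 5 fell, 7 of 14 genes of glycan addition and trimming rose and 1 fell, 6 of 19 of translocation rose and 0 fell, and 6 of 23 of degradation rose and 2 fell. Of the 4 related sensors tested 0 rose and 2 fell. The counts of each list are to be read beside the 22.0% and 20.3% of all tested genes.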

How the data were processed

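All comparisons, of 6 against 6 libraries, used the deposited counts, whole numbers of QuantSeq reads per Ensembl gene without normalization. The authors aligned and counted reads with BlueBee software, and the aligner, annotation and counting strand are not given in the sources used here. The submitters' processing notes name GRCm38, mm10 and DESeq2 1.22.2. A second deposited table of normalized signal (counts divided by 1 size factor per library, 0.836 to 1.07) supplied gene symbols only. The tables' 11 columns of samples outside this experiment were not used.

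In R 4.3.3, edgeR 4.0.16 removed 2383 genes with filterByExpr, scaled libraries by TMM (0.932 to 1.04) and fitted a robust quasi-likelihood model with the condition as its only term. P-values were adjusted over 12730 genes by the Benjamini-Hochberg method. Standard errors are the log2 fold change divided by the square root of F. The thresholds (adjusted p below 0.01, base mean above 50, more than 2-fold) follow the study's methods. DESeq2 1.42.0 and limma 3.58.1 were alternatives. Python 3.11.15 with matplotlib 3.10.9 drew figures. In simulated counts of 12730 genes edgeR recovered 187 of 200 changed genes and called 0 others. The simulated libraries had the same spread in both groups and no split by number, so these counts do not carry over to the wider spread among the BAM15 libraries.

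Full values are given for the sensors, members past all thresholds and, per role, the member with the largest increase, the one with the largest decrease if any had an adjusted p below 0.01, and the one with the highest mean count. Calr, Manf, Syvn1, Sec61b and P4hb were added after their values were seen. Members and lists were chosen with earlier results of these data known.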

Additional observations from a re-analysis of the deposited data

Results flagged for a closer look

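Among the 74 sets of 6 libraries examined (37 members in each group) 1 had a library far from the rest, where chance gives about 1 in 20. Ern1 stood at 573 normalized counts in BAM15 library 5, the highest of its group, with the next library at 469, and the gap made up 0.804 of the group's range. Without that library the log2 fold change of Ern1 was 1.495 (adjusted p = 1.52e-10).

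The change of Manf after BAM15 differed between library numbers, by 0.9753 on the log2 scale between libraries 4 to 6 and 1 to 3 (edgeR interaction term, adjusted p = 0.0488). BAM15 1 to 3 averaged 1384 normalized counts and BAM15 4 to 6 averaged 3060, while the vehicle libraries of these numbers averaged 1264 and 1420. No label names what separates the numbers, the split was itself taken from these data, and the cause was not tested.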

How the results depend on the processing

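The count of 18 members higher was 14 to 19 under the alternatives (DESeq2, limma-voom, other scalings, filters and blocks, each number set alone, no robust moderation, each library left out), with 14 under library size only, 20 at an adjusted p below 0.05 and 15 to 19 with a library left out. The count lower was 0 except for 1 (Edem3) within libraries 1 to 3. Members past all thresholds numbered 4 within libraries 1 to 3, 8 within libraries 4 to 6, 5 to 7 with a library left out and 13 above a 1.5-fold change. The median log2 fold change of tested members was 0.376 to 0.545 with a library left out, 0.267 within libraries 1 to 3 and 0.63 within libraries 4 to 6. The cause of these shifts was not tested. Scaling moved the median of all genes from 0.02 (TMM) to -0.04 (library size only).

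Log2 fold changes below 0 against a positive value over all libraries were found within libraries 1 to 3 for Dnajb11 (-0.0176), Txndc5 (-0.228), Erp44 (-0.114), Syvn1 (-0.457) and Sec61b (-0.238), and within libraries 4 to 6 for Calr (-0.165), Pdia3 (-0.0627), Pdia4 (-0.334), Derl2 (-0.0990) and Os9 (-0.00466). Under library size only they were found for Calr (-0.0373), Hspa13 (-0.00497), P4hb (-0.00646) and Derl2 (-0.0289), without BAM15 1 or 2 for Calr (-0.0226 and -0.0200, in a range up to 0.0976 with a library left out), and without BAM15 5 for Edem2 (-0.0438, up to 0.175). None of these members had passed the test. Under library size only Xbp1 (adjusted p = 0.0109), Dnajc3 (0.0273), Pdia5 (0.0173) and Pdia6 (0.0443) also lost their call.

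Libraries of the 2 groups share numbers 1 to 6, and the correlations of same-numbered deviations from the group means were -0.0756 to 0.311, over 0.1 for 4 of 6 pairs. As not every pair passed, the numbers were not taken as pairs. With the number as a replicate block 17 members rose. Xbp1 (adjusted p = 0.0122) and Dnajc3 (0.0134) lost their call and Canx (0.00943) gained one, the count past all thresholds stayed 6, and 2 of 6 BAM15 libraries correlated best with their own number. BAM15 1, 2 and 3 each correlated best with vehicle 3, and BAM15 4, 5 and 6 with vehicle 6. With a block for the number sets 19 members rose, Canx (0.00332) among them. Depth limits little here, since the lowest mean normalized count of a member was 231 (Mbtps2). The spread among BAM15 libraries limits Syvn1, Sec61b, Txndc5, Manf and Pdia4.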

Other observations

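Some genes of the endoplasmic reticulum outside the members fell after BAM15. The examples given were chosen after their values were seen. Creb3l1, a membrane-bound transcription factor related to ATF6, ran from 676 to 1002 normalized counts against 1292 to 1441 with vehicle (log2 fold change -0.76, edgeR adjusted p = 1.64e-06), and its relative Creb3l2 changed by -0.42 on the log2 scale (adjusted p = 0.000166). Prdx4, the peroxidase of the lumen that also feeds disulfide formation, ran from 417 to 503 against 625 to 813 (-0.72, adjusted p = 1e-06), and Fkbp14, a prolyl isomerase active on collagens, changed by -0.40 (adjusted p = 0.00026). Vcp, the ATPase that pulls substrates out of the membrane, stood at 9474 to 10481 against 11639 to 12729 (-0.24, adjusted p = 0.000409). In these 5 genes all 6 BAM15 libraries lay below all 6 vehicle libraries.

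Other genes of the organelle rose beside them, also chosen after their values were seen. Fkbp11, a prolyl isomerase of the lumen, ran from 772 to 868 normalized counts against 274 to 344 (log2 fold change 1.36), and Serp1, which protects proteins newly inserted in the membrane, from 4529 to 5266 against 1878 to 2031 (1.32). Krtcap2, a subunit of the oligosaccharyltransferase, ran from 6054 to 7584 against 3005 to 3554 (1.07), and the catalytic subunit Stt3a from 1247 to 1840 against 864 to 1026 (0.72), while the subunit Dad1 fell, at a log2 value of -0.25 (adjusted p = 0.00789). Erlin1, which binds degradation substrates in the membrane, ran from 142 to 403 against 61.2 to 134 (1.32). The groups did not overlap for Fkbp11, Serp1, Krtcap2, Stt3a and Erlin1, and they overlapped for Dad1.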
